A study of Sus scrofa with 6 samples.

Results

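The miR-148 and miR-152 family comprises the microRNAs (miRNAs) miR-148a, miR-148b and miR-152, and its members were taken by name from the authors' table of small RNA levels. The table lists 5 such entries among 1645 in all, of which 358 are known pig miRNAs and 1287 predicted ones: miR-152, both arms of miR-148b and both arms of miR-148a. Libraries were made from total RNA of cultured Sertoli cells, the somatic nurse cells of the testis tubule, from pig testes of 80 to 90 days of gestation. After 6 h in medium with 10% fetal bovine serum, cells stayed untreated (control, 3 libraries) or received 250 µM L-ascorbic acid 2-phosphate (AA2P, 3 libraries), a stable form of vitamin C. The labels do not give the length of treatment or say that libraries of a group came from separate animals or cultures, so all p-values measure the spread between these libraries, which may be technical. Values are TPM, here reads scaled to the same total over all entries in each library, and the depths read from the smallest steps between values were 25.8 to 36.0 Mreads, with M for mega.

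A miRNA hairpin is cut into a 5p and a 3p arm. Usually a single arm is kept in Argonaute and pairs with target mRNAs through its seed, the bases near its 5′ end. The main arms of miR-148a, miR-148b and miR-152 share one seed and hence most of their predicted targets. The best known of these is DNMT1, the enzyme that copies DNA methylation onto the new strand after replication; miR-148a and miR-152 repress it in several cell types. Vitamin C acts on the same mark from the other side, as a cofactor of the TET enzymes that oxidise methylated cytosine. Neither DNMT1 nor any other mRNA was measured here.

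The 3 hairpins are paralogs in matching surroundings. In RefSeq's gene table for the pig assembly Sscrofa11.1, which need not be the build the authors used, MIR152 lies within the span of COPZ2 and MIR148B within that of COPZ1, which encode the zeta subunits of the COPI vesicle coat. MIR148A lies inside no named protein-coding gene, between NFE2L3 and NPVF. Near each hairpin stand a gene of the NFE2 family of transcription factors and a gene for a heterochromatin protein (NFE2L1 and CBX1 by MIR152, NFE2 and CBX5 by MIR148B, NFE2L3 and CBX3 by MIR148A). HOXB1 follows MIR152 and HOXC4 precedes MIR148B within 5 named genes. The table gives neither strand nor exons, so whether a hairpin is intronic was not determined here.

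The order of the 2 abundant members turned over with AA2P. In controls miR-152 stood above miR-148b-3p in each of the 3 libraries, and with AA2P it stood below it in each of the 3. miR-152 was at 5101, 6263 and 6429 TPM in control replicates 1 to 3 and at 4205, 3163 and 3863 TPM in AA2P replicates 1 to 3. All AA2P libraries lay below all control libraries, and the lowest control, replicate 1, was the nearest to them. miR-148b-3p was at 3493, 3747 and 3534 TPM in controls and at 4477, 4396 and 4436 TPM with AA2P. Here every AA2P library lay above every control, and the AA2P libraries differed little among themselves. Whether reads that fit more than 1 of these near-identical miRNAs were split between them is not given in the sources used here. How far this touches the levels of the members or their sum is therefore not known. Reads of different miRNAs also depend on how readily adapters join each of them, so the order is that of the reads and need not be that of the molecules.

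**Figure D1:**
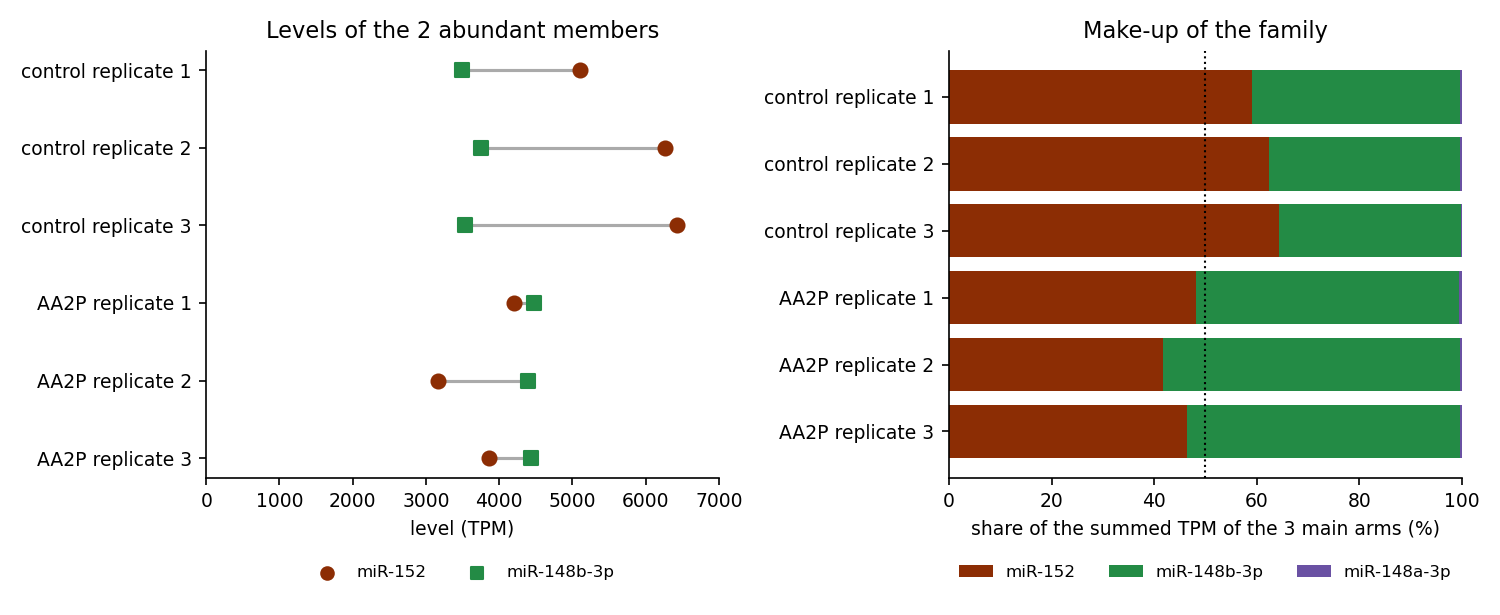
Left, level of miR-152 (circles) and miR-148b-3p (squares) in TPM for each of the 6 libraries; right, share of miR-152, miR-148b-3p and miR-148a-3p in the summed TPM of the 3 main arms, in percent, with a dotted line at equal parts. miR-152 is the larger in all 3 control libraries (59.2 to 64.4% of the sum) and the smaller in all 3 AA2P libraries (41.7 to 48.2%).

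miR-152 fell 1.58-fold with AA2P, from 5931 ± 724 to 3744 ± 531 TPM (SD, n = 3 per group). On the log2(TPM + 1) scale its change was -0.67 (SE 0.141, 95% interval -1.01 to -0.32; limma, adjusted p = 0.0183). Among the 358 known miRNAs it ranked 16th to 23rd in control libraries and 24th to 30th in AA2P libraries. Its closest neighbours in mean control level were miR-221-3p (6032 ± 1019 TPM), a repressor of the cell cycle inhibitor CDKN1B, and miR-20a-5p (5770 ± 1123 TPM) of the miR-17~92 cluster. Neither stood apart from miR-152 beyond the SD in controls. With AA2P miR-221-3p was at 2783 ± 204 TPM and miR-20a-5p at 6017 ± 314 TPM, on either side of miR-152. Among the filters, scalings and left-out libraries tried, the miR-152 call ended without control replicate 2 (adjusted p = 0.0641), without control replicate 3 (0.0739), with no filter on low entries (0.0530) and under quantile normalization (0.0944, log2 fold change -0.54).

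miR-148b-3p rose 1.24-fold, from 3591 ± 136 to 4436 ± 40.5 TPM (log2 fold change 0.31, SE 0.0592, 95% interval 0.16 to 0.45; limma, adjusted p = 0.0138). Its rank went from 27th to 30th in control libraries to 22nd to 23rd in AA2P libraries. In mean control level it stood between miR-17-5p (3906 ± 532 TPM) and miR-24-3p (3427 ± 184 TPM), with neither apart from it by more than the larger SD. Among the same settings the call ended under 4 of 5 other scalings, where the log2 fold change was 0.01 to 0.11 and the adjusted p 0.418 to 0.957; it also ended without control replicate 1 (0.0569) or 3 (0.0691) and with no filter (0.0632).

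The other arm of the same hairpin, miR-148b-5p, was listed at 15.8, 14.8 and 16.1 TPM in controls and at 22.1, 21.5 and 19.9 TPM with AA2P. The groups did not overlap, and the rise was 1.36-fold (log2 fold change 0.42, SE 0.0951; limma, adjusted p = 0.0232). Its call ended in 12 of 19 alternatives, among them all 5 other scalings (log2 fold change 0.08 to 0.23) and leaving out any 1 of the control libraries or AA2P replicate 1 (adjusted p = 0.0643 to 0.0739). The 5p arm made up 0.392 to 0.452% of the reads of both arms in controls and 0.446 to 0.491% with AA2P, so the groups overlapped in arm use. The log2 ratio of miR-148b-5p to miR-148b-3p, taken on TPM + 1, changed by 0.11 (SE 0.126, 95% interval -0.16 to 0.39; limma, adjusted p = 0.739). It changed by 0.14 with a pseudocount of 0.1 and by 0.042 with a pseudocount of 5, neither called. Of 60 hairpins with both arms at a mean of at least 1 TPM, limma called 0 (0%), with 10 at an unadjusted p under 0.05. No other tool was run on the arms. miR-152 is listed without an arm, and only 1 entry of its hairpin was found by the naming rule.

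miR-148a, the member best known from liver and from the antibody-secreting cells of the blood lineage, was scarce in these cells. Its 3p arm was at 25.1, 27.2 and 21.7 TPM in controls and at 41.5, 23.4 and 26.9 TPM with AA2P. Only AA2P replicate 1 lay above the control libraries, and the other 2 AA2P libraries lay among them. The log2 fold change was 0.27 (SE 0.222, 95% interval -0.28 to 0.81; limma, adjusted p = 0.409), and without AA2P replicate 1 it was 0.03. Under 3 of 5 other scalings it lay just below 0. The same library held 5.40 TPM of miR-223, a miRNA of myeloid cells, against at most 0.06 TPM in each of the other 5, and the part of blood cells in the miR-148a value was not tested. The summed blood and endothelial markers were at 126 TPM in that library and at 92.5 to 117 TPM in the others. Of the other markers in that sum, miR-142-3p (2.68 TPM), miR-142-5p (2.08 TPM) and miR-150 (0.11 TPM) were also highest in AA2P replicate 1. miR-126-3p, miR-126-5p, miR-144, miR-451 and miR-486 were not. The 5p arm, miR-148a-5p, was listed at 0 in the 3 controls and at 0.04, 0.06 and 0.06 TPM with AA2P, which correspond to 1, 2 and 2 reads. Both groups are at or under 3 reads, the limit that a count of 0 allows (0.0930 to 0.116 TPM in controls), so no difference was detectable at this depth and the entry did not pass the filter on low values.

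**Figure D2:**
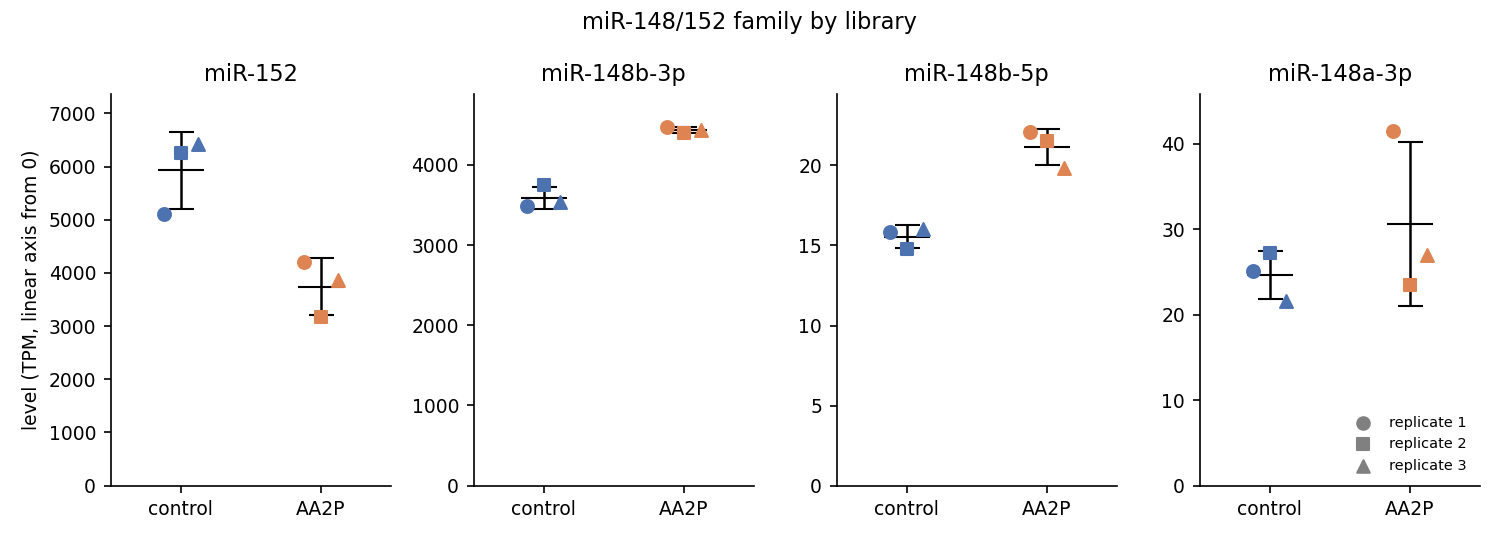
Level in TPM, on linear axes from 0 that differ between panels, of the 4 members that passed the filter; points are libraries (marker shape gives the replicate number), long bars the mean and whiskers the SD of 3 libraries. The groups are apart for miR-152, miR-148b-3p and miR-148b-5p and overlap for miR-148a-3p, where AA2P replicate 1 stands at 41.5 TPM.

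Within each group the order of the entries was otherwise stable. miR-148a-3p stood above miR-148b-5p in all 6 libraries, with no overlap of their ranges within a group. miR-152 and miR-148b-3p rested on at least 90217 reads in each library, miR-148a-3p on 649 to 1114 reads and miR-148b-5p on 409 to 774 reads. Counting error alone came to 0.223 to 0.297% of the level for miR-152, whose SD was 12.2% of the mean in controls. For miR-148b-5p it came to 3.59 to 4.94%, about as large as the SD in controls (4.47%).

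Of the 5 members, 4 were tested, and limma called 2 higher and 1 lower. Over all 433 entries tested, 24.7% were called, 19.9% as higher and 4.85% as lower with AA2P. Groups that did not overlap were likewise frequent among all entries, with 40.4% higher and 9.24% lower, against 2 members higher and 1 lower here. The median log2 fold change of all entries tested was 0.25. miR-21-5p, the most abundant miRNA, held 51.3 to 53.0% of the TPM in controls and 37.0 to 44.1% with AA2P, and with the totals taken without it that median was -0.01. Relative to the median of 0.25 in the deposited TPM, miR-148b-3p stood at 0.06, miR-148a-3p at 0.02, miR-148b-5p at 0.17 and miR-152 at -0.91. The change of miR-152 was the 32nd lowest of the 433, while that of miR-148b-3p was the 183rd highest. Under those totals the change of miR-152 was -0.96 (limma, adjusted p = 0.0144) and that of miR-148b-3p 0.01 (0.957).

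**Figure D3:**
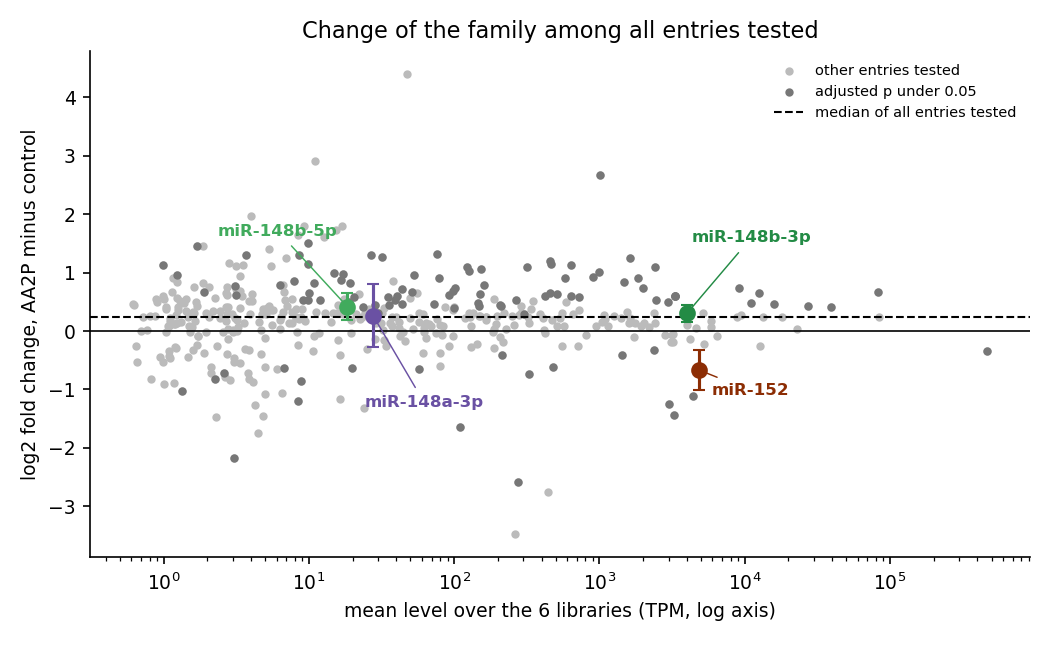
Log2 fold change (AA2P minus control, on log2(TPM + 1)) against the mean level over the 6 libraries (TPM, log axis) for the 433 entries tested; dark grey points have an adjusted p under 0.05, the dashed line is the median of all entries at 0.25, and coloured points with 95% intervals are the family. miR-148a-3p, miR-148b-3p and miR-148b-5p lie near the dashed line, and miR-152 lies below it at -0.67.

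Scaling a library by a common factor hardly changes the ratio of 2 of its miRNAs. Quantile normalization is no such factor and was not run on the ratios. Under it the log2 fold change was -0.54 for miR-152, 0.34 for miR-148b-3p and -0.04 for miR-148a-3p. The log2 ratio of miR-152 to miR-148b-3p was 0.55, 0.74 and 0.86 in controls and -0.09, -0.47 and -0.20 with AA2P. It went from a mean of 0.72 ± 0.160 to -0.25 ± 0.198, a change of -0.97 (SE 0.147). The log2 ratio of miR-152 to miR-148a-3p went from 7.85 ± 0.274 to 6.92 ± 0.255, a change of -0.93 (SE 0.216). Both ratios were lower in every AA2P library than in any control. Each had p = 0.1 in a two-sided exact permutation test (adjusted over the 3 pairs compared, 0.15), which is the smallest that 3 against 3 libraries can reach. The ratio of miR-148b-3p to miR-148a-3p changed by 0.04 (SE 0.245), with overlapping groups (two-sided exact permutation test, p = 0.9; adjusted, 0.9). Its SE leaves room for differences of either sign, so the response of these 2 members is not shown to be alike.

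The same ratios were taken against each of the 429 tested entries outside the family, as a description, since all of them share the miR-152 values of the same 6 libraries. The ratio of miR-152 fell against 398 of the 429, and against 321 (74.8%) the groups did not overlap. The ratio of miR-148b-3p rose against 248 and fell against 181, with groups apart for 97 as higher and 65 as lower. That of miR-148a-3p rose against 223 and fell against 206. These counts of rises and falls follow from the rank of each member's log2 fold change among the entries tested, so they are no separate support.

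The shares of miR-152 and miR-148b-3p in the family stood apart between the groups, while its sum overlapped in the deposited TPM. The summed level of the 5 entries was 8635, 10051 and 10001 TPM in controls and 8746, 7604 and 8345 TPM with AA2P, which overlap. The mean went from 9562 ± 804 to 8232 ± 579 TPM. Under other scalings the sum stood lower by more: its log2 ratio of group means was -0.22 as deposited, -0.51 with totals without miR-21-5p and -0.49 with median-of-ratios scaling. Of the 3 main arms miR-152 held 62.0% ± 2.63 of their sum in controls and 45.4% ± 3.35 under AA2P, so its share stood -16.6 percentage points apart from that of controls. miR-148b-3p held 37.8% ± 2.59 and 54.2% ± 3.42, and miR-148a-3p held 0.260% ± 0.0386 and 0.369% ± 0.0921. No test was made on the sum or the shares.

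**Figure D4:**
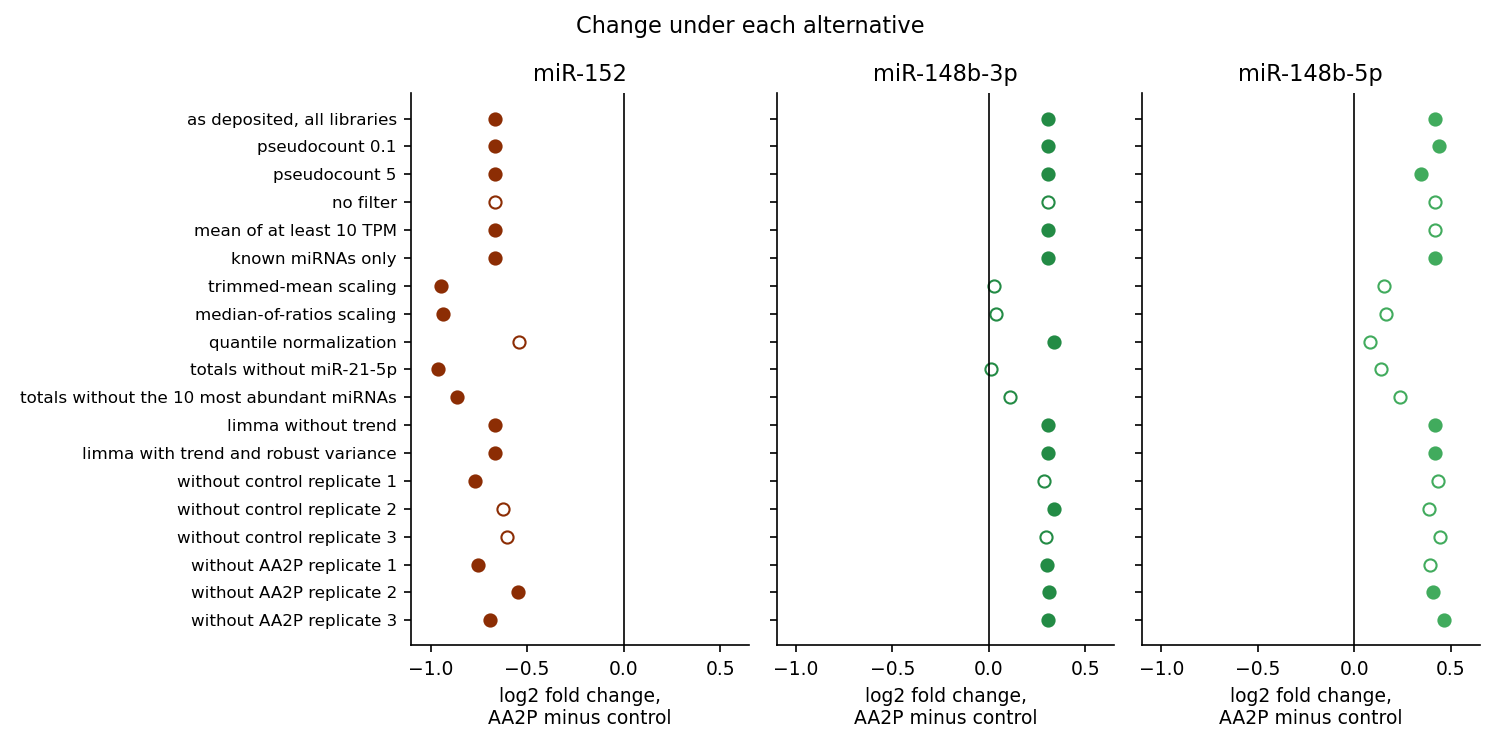
Log2 fold change (AA2P minus control) of miR-152, miR-148b-3p and miR-148b-5p as deposited and under each alternative scaling, filter, pseudocount, variance model or left-out library; filled points have an adjusted p under 0.05. miR-152 stays below 0 in all settings drawn (-0.96 to -0.54), and miR-148b-3p is at 0.01 to 0.11 under the 4 scalings other than quantile normalization.

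Other miRNAs that act on DNA methylation enzymes were followed as lists. Of 10 tested miRNAs known to repress a DNA methyltransferase, 2 fell and 0 rose, where 4.85% of all entries tested fell and 19.9% rose, and their median log2 fold change was -0.03 against 0.25 for all entries, in the deposited TPM. Those that fell belong to the family that represses DNMT3A and DNMT3B. They were miR-29a-3p (1639 ± 159 TPM in controls, 1224 ± 23.2 TPM with AA2P) and miR-29b (24.1 ± 1.26 and 15.4 ± 3.16 TPM; limma, adjusted p = 0.0183 and 0.0313). Their calls ended in 4 and 6 of 19 alternatives. The third member, miR-29c, was at 4.43 and 3.35 TPM (limma, adjusted p = 0.147), and it was called lower under 4 of 5 other scalings (log2 fold change -0.56 to -0.53, adjusted p = 0.0261 to 0.0489). miR-185, which like miR-152 represses DNMT1, was at 1526 ± 17.7 and 1685 TPM (limma, adjusted p = 0.214), and miR-342, another reported DNMT1 repressor, at 32.5 and 32.7 TPM (0.935). miR-126-3p, miR-140-3p, miR-143-3p and miR-101 had log2 fold changes of -0.08, 0.09, -0.15 and 0.14 and were not called, though miR-126-3p was called lower under 3 of 5 other scalings (limma, adjusted p = 0.0260 to 0.0397) and miR-140-3p under quantile normalization (0.0237). miR-140-5p was not called at 0.42 (limma, adjusted p = 0.0577), but was called higher under the filter at a mean of 10 TPM (0.0304), among known miRNAs alone (0.0112) and when AA2P replicate 3 was left out (0.0455). The counts of 2 and 0 thus hold for the deposited scaling and the filter used. miR-152 was the most abundant of the repressors of DNA methyltransferases listed or in the family in controls, and miR-148b-3p with AA2P.

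The list of TET repressors moved in both directions. Of 7 tested members, miR-22-3p rose, miR-29a-3p and miR-29b fell, and 4 did not pass (19.9% of all entries tested rose and 4.85% fell), with a median log2 fold change of 0.14. miR-22-3p, a repressor of several TET genes, went from 352 ± 39.0 to 556 TPM (log2 fold change 0.65; limma, adjusted p = 0.0319), a call that ended in 11 of 19 alternatives, among them all 5 other scalings. miR-26a and miR-26b-5p were at 0.25 and 0.32 on the log2 scale (limma, adjusted p = 0.191 and 0.0577), and miR-26b-5p was called higher among known miRNAs alone (0.0285). The miR-29 family and miR-101 stand in both lists, so the counts of the 2 lists are not independent.

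The miR-130 and miR-301 family has a seed that overlaps that of miR-148a, miR-148b and miR-152 in a shifted register. All 4 of its tested members had log2 fold changes above 0 in the deposited TPM, with a median of 0.42, but miR-130b-3p stood below 0 under 4 of 5 other scalings. Of all 433 entries tested, 316 (73.0%) were above 0. miR-454 rose from 117 ± 11.5 to 203 TPM (limma, adjusted p = 0.00427) and miR-130a from 30.1 ± 2.20 to 41.6 TPM (0.0375), while miR-301 (0.39) and miR-130b-3p (0.20) did not pass, against 19.9% of all entries called higher. The call of miR-454 held in all 19 alternatives and that of miR-130a ended in 12.

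**Figure D5:**
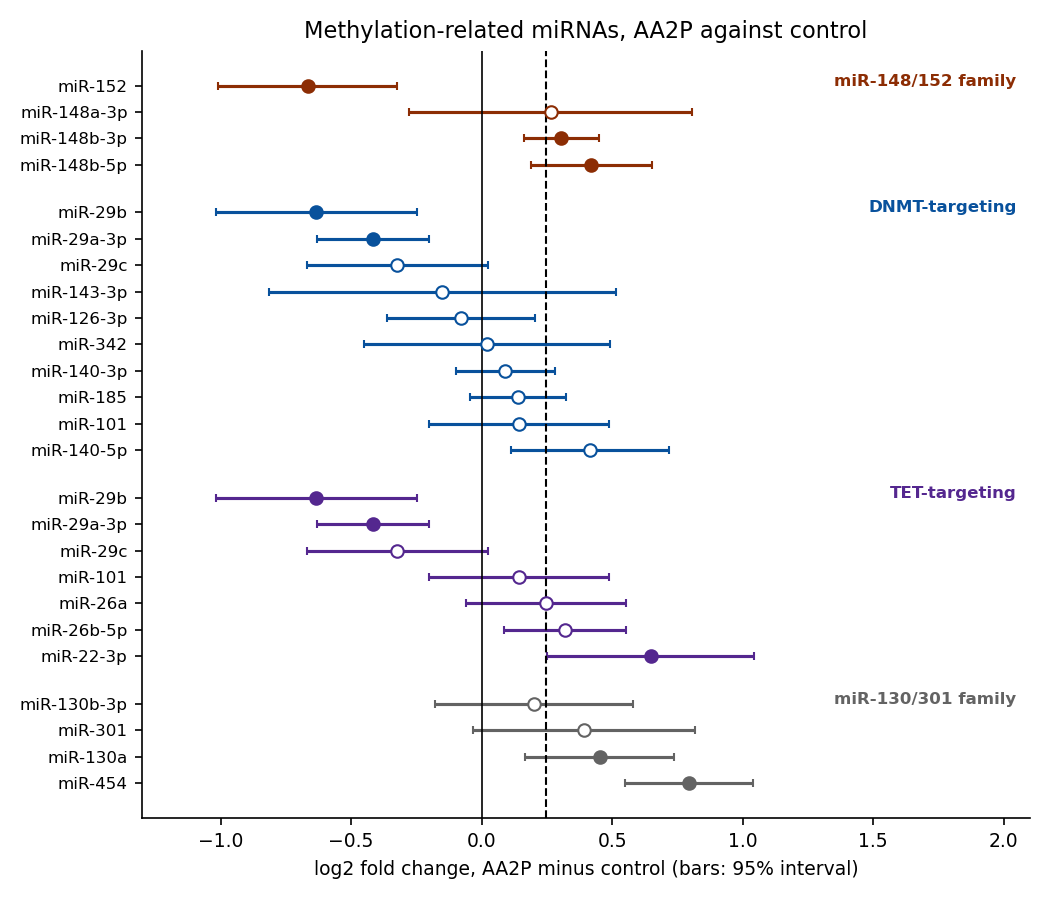
Log2 fold change (AA2P minus control) with 95% interval for the tested members of the family, of the lists of DNA methyltransferase and TET repressors, and of the miR-130 and miR-301 family; filled points have an adjusted p under 0.05 and the dashed line is the median of all entries tested (0.25). miR-152, miR-29a-3p and miR-29b are filled and below 0.

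The entries whose pattern over the 6 libraries was most like that of a member were found among 203 known miRNAs with a mean of at least 10 TPM, by Pearson's r of log2(TPM + 1). For miR-152 they were miR-23a (r = 0.969), miR-21-5p (0.949) and miR-29b (0.925). For miR-148b-3p they were miR-450b-5p (0.995), miR-2411 (0.984) and miR-454 (0.979), and its own other arm, miR-148b-5p, came 31st (0.916). For miR-148a-3p they were miR-7134-5p (0.970), miR-331-3p (0.891) and miR-27b-3p (0.880). Between members r was -0.834 for miR-152 and miR-148b-3p, -0.200 for miR-152 and miR-148a-3p, and 0.529 for miR-148b-3p and miR-148a-3p. These values are descriptions over 6 libraries that share the split into treated and untreated cells and the scaling to a common total.

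Marker miRNAs of several cell types were summed in each library. Which cells of the cultures they came from, Sertoli cells included, was not tested. Markers of epithelium (4 in the table) were at 1588 to 1675 TPM in controls and 2414 to 2959 TPM with AA2P. The 2 of germ cells were at 169 to 183 and 213 to 283 TPM. Both sums stood apart between the groups, higher with AA2P, as 40.4% of all entries tested did. The germ cell sum was nearly all miR-34c, with miR-371-5p at 0 to 0.11 TPM. The epithelial sum was carried by miR-200b and miR-429, while miR-141 was not called (log2 fold change -0.18) and miR-205 was at 0 to 0.33 TPM. The 6 of muscle and myoid cells were at 168 to 227 and 219 to 307 TPM, and the 9 of blood and endothelium at 103 to 117 and 92.5 to 126 TPM, with overlap. The blood and endothelial sum was mostly miR-126-3p (83.6 to 109 TPM). Of its 4 tested members miR-142-3p was called higher, at 0.51 and 1.98 TPM (limma, adjusted p = 0.0293), and 3 were not called. Over all entries tested, 19.9% were called higher. Of the 4 tested muscle markers none was called, and only miR-1 stood apart (126 to 172 and 185 to 267 TPM). None of the markers in these lists was at 0 in all 6 libraries. The part of the marked cell types in the changes of miR-152 and miR-148b-3p was not tested. The lists held no miRNA that defines Sertoli cells, so the labelled cell type was not checked here. In bulk RNA, fewer cells of a type and less of a miRNA per cell cannot be told apart.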

How the data were processed

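The authors deposited 1 table of TPM for the 6 libraries, rounded to 2 decimals, in which each column sums to the same total over known and predicted entries. The submitters' processing notes name Bowtie, with neither version nor role. The genome build, the miRBase release and how shared reads were assigned are not stated in the sources used here. The depth of a library was read from the step between its low values, of which 99.0 to 100.0% lay within rounding of whole reads. Depths and floors cover counting error only. Libraries of 1 group differed by far more than counting noise (chi-square per degree of freedom at least 98.8), and none was taken for a repeat.

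Tested were entries that reached 1 TPM in 3 or more libraries (433, of which 264 known) with limma 3.58.1 in R 4.3.3 on log2(TPM + 1), with a mean-variance trend, two-sided, and Benjamini-Hochberg adjustment over all entries tested, at 0.05. A fold change on this scale understates that of low entries, while "-fold" values are ratios of group mean TPM. Arm use was tested likewise on log2 ratios of arms, and pairs of members by an exact permutation test. Alternatives were other pseudocounts, filters, scalings and variance models, a block and leaving out each library. The members and lists were chosen with earlier results of these data known. Text names all members, the tested members of 3 lists, the nearest miRNAs in level and the 3 most alike in pattern. Single miRNAs of the marker lists are named as well. miR-223 and miR-21-5p beside the blood and scaling values were chosen after their values were seen.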

Additional observations from a re-analysis of the deposited data

How the results depend on the processing

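The count of calls, 107 as deposited, was 57 with no filter, 63 with a replicate block and 62 to 98 when 1 library was left out, the lowest without control replicate 3. The other scalings moved the median of all entries by -0.26 to -0.18 and the share of higher among the calls from 80.4% to between 47.6 and 60.4%. Libraries that share a replicate number deviated together with correlations of 0.29, 0.06 and 0.18, so the numbers were not taken to pair them. With the replicate block the adjusted p (limma) was 0.0632 for miR-152, 0.0685 for miR-148b-3p and 0.104 for miR-148b-5p. miR-152 kept its direction in all 19 alternatives and its call in 14. miR-148b-3p kept its direction in 19 and its call in 11.

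Arm use, with 0 calls, gave 4 with a pseudocount of 5 and 0 to 6 when 1 library was left out (6 without control replicate 2 and 3 without AA2P replicate 2), and miR-148b was in none of them (limma, adjusted p = 0.597 to 0.906). The change of the ratio of miR-148b-3p to miR-148a-3p was -0.12 to 0.27 when 1 library was left out. The log2 ratio of the family sum was -0.51 with totals without miR-21-5p and -0.49 with median-of-ratios scaling, and -0.28 to -0.16 when 1 library was left out.

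Log2 fold changes of miRNAs that were not called turned as follows; the other scalings lowered the median of all entries. With trimmed-mean scaling, miR-148a-3p was at -0.0060, miR-101 at -0.14, miR-130b-3p at -0.069, miR-140-3p at -0.19, miR-185 at -0.14, miR-26a at -0.033 and miR-342 at -0.25. With median-of-ratios scaling, miR-101 was at -0.13, miR-130b-3p at -0.059, miR-140-3p at -0.18, miR-185 at -0.13, miR-26a at -0.023 and miR-342 at -0.24. With quantile normalization, miR-148a-3p was at -0.044, miR-101 at -0.18, miR-130b-3p at -0.11, miR-140-3p at -0.31 (limma, adjusted p = 0.0237), miR-185 at -0.17, miR-26a at -0.23 and miR-342 at -0.31. With totals without miR-21-5p, miR-148a-3p was at -0.019, miR-101 at -0.15, miR-130b-3p at -0.082, miR-140-3p at -0.20, miR-185 at -0.16, miR-26a at -0.047 and miR-342 at -0.26. With totals without the 10 most abundant miRNAs, miR-101 was at -0.054, miR-140-3p at -0.10, miR-185 at -0.056 and miR-342 at -0.17. When 1 library was left out, miR-342 ranged from -0.093 to 0.20, miR-143-3p from -0.36 to 0.071, miR-101 from -0.0020 to 0.27 and miR-126-3p from -0.16 to 0.018. The cause of these turns was not tested.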
